A study of Mus musculus with 5 samples.

Results

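The regions described here were the promoters of protein-coding genes at which exactly 2 of 3 antibodies against NEUROD2 gave a ChIP-Seq peak in the embryonic mouse cortex. They were chosen by measured values: peaks of the 3 antibodies that shared 1 bp or more were merged, and a merged region was kept when it held peaks of exactly 2 antibodies and its midpoint lay within 1000 bp of the transcription start site (TSS) of the longest-span transcript of a protein-coding gene. The rule gave 3779 members among 32261 regions with peaks of at least 2 antibodies on chromosomes 1 to 19, X and Y, or 11.7% of them. Antibodies 1 and 2 made up the pair in 3776 members, antibodies 2 and 3 in 2, and antibodies 1 and 3 in 1. The set was therefore almost the same as the promoters bound with antibodies 1 and 2 and without an antibody 3 peak.

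Chromatin came from the cerebral cortex of BALB/c embryos at E14.5, the peak of excitatory neuron birth, without any genetic change or treatment, and embryos of several litters were pooled. Antibody 1 was raised in mouse and antibodies 2 and 3 in rabbit, and each was sequenced as 1 library. The controls were 2 libraries made with antibodies against GFP, a protein absent from these mice. For peak calling the authors paired every NEUROD2 antibody with the GFP control raised in its own host, so antibodies 2 and 3 shared a control. The 3 libraries are measurements of a single condition without biological replicates, and no test between conditions is possible. The lists held 51841 peaks for antibody 1, 35310 for antibody 2 and 7470 for antibody 3, and read depth is unknown from them. The paper's supplement gives raw sequencing counts for each antibody, which were not used here. Each peak has a score, −10 log10 of the p-value given by MACS, with a lowest value of 50. A missing antibody 3 peak thus means only that no peak reached that limit, and signal below it was not examined. Peak lists hold no expression values, so cortical markers could not be checked. The intervals below are 95% Wilson intervals for a share and 95% Newcombe intervals for a difference of shares, in percentage points, unadjusted for the number of comparisons. They cover counting error over regions or genes, which are not replicates.

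NEUROD2 is a basic helix-loop-helix (bHLH) transcription factor of postmitotic excitatory neurons. Factors of this family bind as dimers with E proteins to the E-box, a short palindrome-like element in which the central bases set the preference for a given dimer. Many promoters of genes that are active in most cells lie in CpG islands, GC-rich stretches that escape DNA methylation and are commonly found in open chromatin, whereas many tissue-restricted genes start outside such islands.

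Sequences of the strongest members are shown first, split by whether they held the extended E-box. The windows shown were chosen differently for each set, at the E-box or before the TSS, and are not a comparison. The extended E-box searched for was any of 4 core hexamers (CAGCTG, the form CAGATG, its reverse complement CATCTG, and the form CATATG) with a following G or T, on either strand, in the 200 bp around the region midpoint. The members with the highest antibody 2 scores that held it belonged to 4930404H24Rik, an uncharacterised gene, Crtac1, which encodes a secreted matrix protein, and Phf20, which encodes a chromatin reader. The E-box nearest to the midpoint is in capitals, on the strand on which it reads as above, at chr2:153492595-153492624 (minus strand), chr19:42431839-42431868 (plus strand) and chr2:156196819-156196848 (minus strand) of the RefSeq assembly GRCm38.p6 (mm10).
4930404H24Rik: cccccgccctggCAGCTGTcagcggcgcgc
Crtac1: caatggcgcggCAGCTGGagccggggccca
Phf20: cacggccccaacCAGCTGGcttcgcgtcgc
All 3 carried the CAGCTG form. The E-box lay 181 bp upstream of the TSS of 4930404H24Rik, 70 bp upstream of that of Crtac1 and 191 bp downstream of that of Phf20. None of these windows overlapped an annotated exon. The scores with antibodies 1 and 2 were 2867 and 1214 at 4930404H24Rik, 2237 and 1055 at Crtac1, and 1624 and 735.2 at Phf20.

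Strong members without the extended E-box in that window are shown by the 100 bases before their TSS, on the strand of the gene, with each CpG in capitals. They belonged to Sox11, a SoxC transcription factor of newborn neurons, Cct7, a subunit of the cytosolic chaperonin, and Trim67, a TRIM family gene expressed in brain. Sh3glb1 ranked among them and was left out because an annotated exon overlapped its window. The stretches lay at chr12:27342575-27342674 (minus strand), chr6:85451414-85451513 (plus strand) and chr8:124792992-124793091 (plus strand).
Sox11: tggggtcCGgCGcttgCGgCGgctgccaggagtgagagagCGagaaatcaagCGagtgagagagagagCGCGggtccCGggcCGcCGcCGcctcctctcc
Cct7: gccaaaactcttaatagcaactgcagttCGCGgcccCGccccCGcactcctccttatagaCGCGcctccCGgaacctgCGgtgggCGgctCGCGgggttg
Trim67: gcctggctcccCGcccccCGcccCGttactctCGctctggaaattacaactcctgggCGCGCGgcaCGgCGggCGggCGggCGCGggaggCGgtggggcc
These 100 bases held 12 CpG at Sox11, 11 at Cct7 and 14 at Trim67, and their GC content was 71%, 66% and 78%.

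The strength of the peaks is part of the rule and is given as a description. Over the members the antibody 1 score had a median of 217 and ranged from 50 to 3100, and the antibody 2 score had a median of 116 and ranged from 50 to 1675. The range from the lower to the upper quartile ran from 124 to 407 with antibody 1 and from 76.2 to 194 with antibody 2. The antibody 1 score was the higher in 3146 of 3776 members with both peaks, or 83.3%. Scores of different antibodies were not scaled to each other. Across members the scores correlated with a Spearman rho of 0.64, a description over regions that share both libraries. At the 323 coding promoters with peaks of all 3 antibodies the medians were 1195 with antibody 1 and 625 with antibody 2. At the 15025 regions of 2 antibodies that lay over 10000 bp from any TSS, called distal here, they were 205 and 108. The highest antibody 1 score was also 3100 at these distal regions and was 3233 at the 3-antibody promoters. Whether 3100 is a ceiling of the score was not tested. The members thus had scores close to those of distal regions of the same kind and well under those of the 3-antibody promoters. They were wider than the distal regions, with a median of 1305 bp against 761 bp, and 1430 bp at the 3-antibody promoters.

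**Figure D1:**
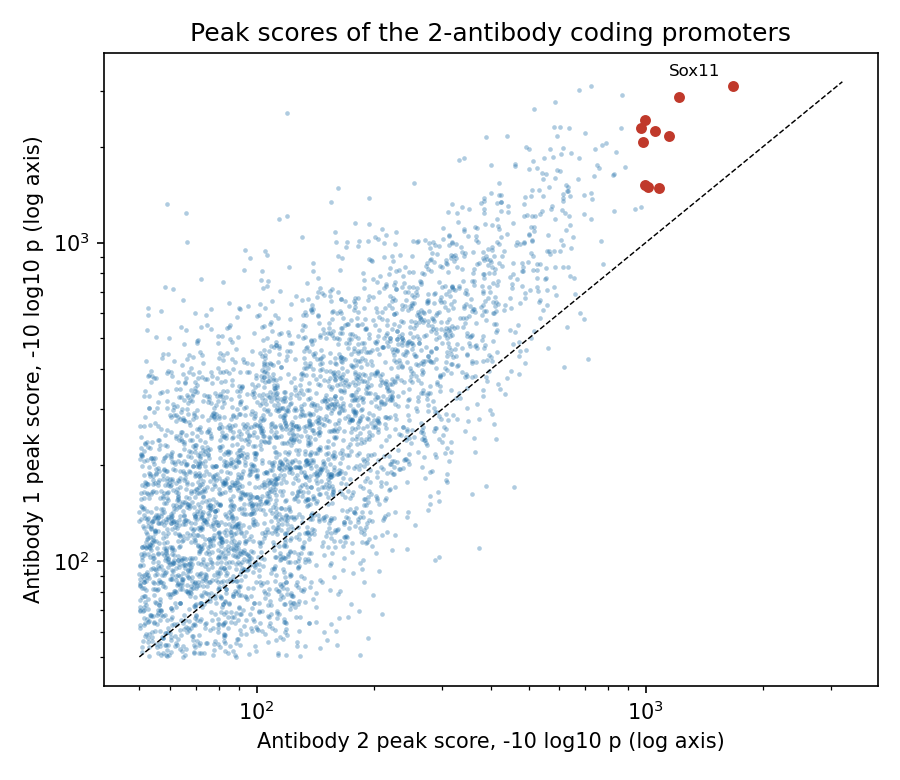
Peak scores of the members with antibody 2 (horizontal) and antibody 1 (vertical), both −10 log10 p on log axes. Each point is a region, the 10 with the highest antibody 2 scores are red, and the dashed line marks equal scores; 83.3% of the members lie above it.

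Antibody 3 peaks were rarer at coding promoters than at distal regions of equal antibody 2 score. Among regions with peaks of antibodies 1 and 2 and an antibody 2 score from 200 up to 400, an antibody 3 peak was present at 61 of 735 coding promoters (8.30%) and at 1070 of 3610 distal regions (29.6%). From 400 up to 800 it was present at 115 of 331 promoters (34.7%) and at 1709 of 2300 distal regions (74.3%). From 800 upwards the shares were 85.8% of 134 promoters and 98.5% of 1749 distal regions. In all, 7.87% of the coding promoter regions and 24.9% of the distal regions had all 3 antibodies. Since the rule used the antibody 3 peak, these shares are given without a test.

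The 10 members with the highest antibody 2 scores all lay at CpG-island-like promoters, as defined below, against 80.6% of all members. Of these 10, 2 held the extended E-box, against 19.2% of all members. The first was Sox11 (chr12:27340853-27344073), with a score of 3100 for antibody 1 and 1675 for antibody 2, and with its midpoint in the 5′UTR. It was followed by 4930404H24Rik and by Sh3glb1, which encodes endophilin B1, at 2156 and 1148 in the first intron. Cct7 had 1487 and 1084, Crtac1 had 2237 and 1055, and Trim67 had 1490 and 1016. Cd9, a tetraspanin, had 1517 and 997.6, and Mlycd, the malonyl-CoA decarboxylase, had 2434 and 995.3. Insig1, which holds back the sterol-regulated activation of SREBP, had 2063 and 984.2. Insm1 (chr2:146220288-146224292), a zinc finger factor of basal progenitors, had 2285 and 972.9 over a region of 4005 bp.

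The limits of the rule ran through a continuous range. The members nearest to the distance limit were at Large2, with a midpoint 1000 bp from the TSS and scores of 136.5 and 55.7 for antibodies 1 and 2, and at Zfp827, at 998 bp with 282 and 102. The nearest regions beyond it were at Tmem167b, at −1001 bp with 78.8 and 74.3, and at Fzd1, at 1002 bp with 728 and 351. At the score limit, the members with the lowest antibody 2 scores were Hist2h2ab, at 50 against 91.2 with antibody 1, and Mettl3, at 50.01 against 143. The members of other antibody pairs were also near it: Dcaf8 had 136 with antibody 2 and 50.2 with antibody 3, Cdk5rap1 had 83.8 and 55.5, and Rhoj had 108 with antibody 1 and 53.0 with antibody 3.

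Members lay mostly just downstream of the TSS. The midpoint was at or downstream of it in 2773 of 3779 members (73.4%, interval 71.9 to 74.8), and its median position was 113 bp downstream, with quartiles at −7.5 and 252 bp. The midpoint fell in the 5′UTR of the first exon in 1314 members (34.8%), in the coding part of the first exon in 628 (16.6%), in the first intron in 754 (19.95%) and upstream of the gene in 1006 (26.6%). At the 3-antibody promoters 229 of 323 midpoints lay at or downstream of the TSS (70.9%, interval 65.7 to 75.6), an interval that overlapped that of the members. The midpoint was within 250 bp of the TSS in 68.9% of members and in 48.6% of the 3-antibody promoters. Because distance entered the rule, these last shares are a description.

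**Figure D2:**
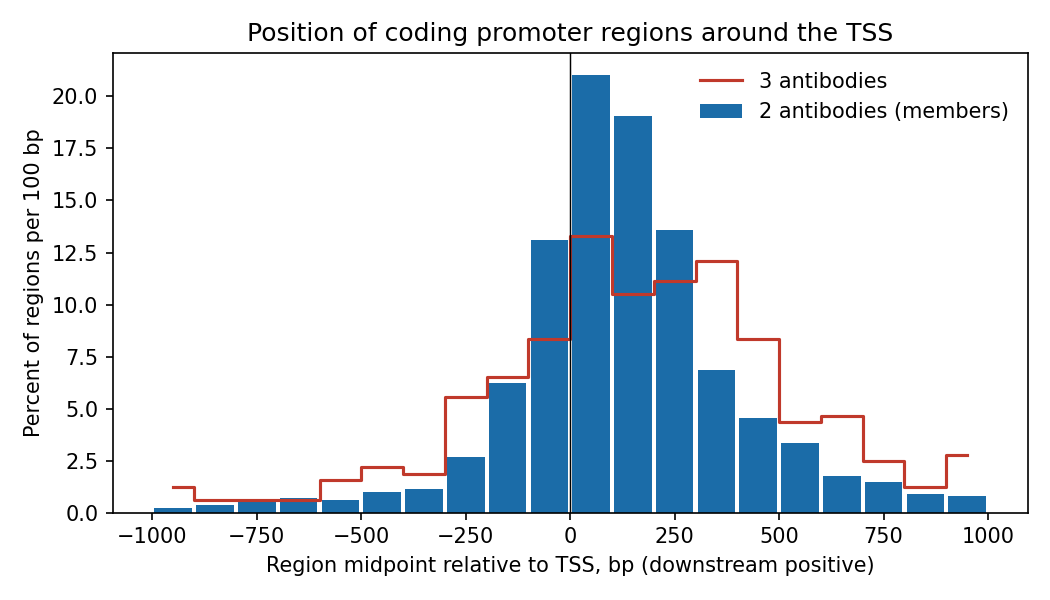
Position of region midpoints relative to the TSS (horizontal, bp, downstream positive) as the percent of regions in each 100 bp bin (vertical). Bars show the 3779 members and the red line the 323 promoters with all 3 antibodies; the highest bin of the members is the first 100 bp downstream of the TSS, with 21.0% of them.

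Members were concentrated at CpG-rich promoters. Over genes, 4206 of 21938 protein-coding genes had a member within 1000 bp of the TSS, a background of 19.2%. Another 353 genes had a 3-antibody region there, of which 3 also had a member, 3605 had peaks of a single antibody only, and 13777 had no peak. Promoters were called CpG-island-like when the 1000 bp around the TSS had a GC content of at least 50% and an observed over expected CpG ratio of at least 0.6. This held for 3417 of the 4206 genes with a member (81.2%, interval 80.03 to 82.4) and for 3560 of the 13777 genes without a peak (25.8%, interval 25.1 to 26.6), a difference of 55.4 points (interval 54.0 to 56.8). It held for 55.5% of the 353 genes with a 3-antibody region, 25.7 points fewer than for the members (interval 20.5 to 31.1). Genes with single-antibody peaks were close to the members at 79.5%, a difference of 1.77 points (interval 0.00312 to 3.54). The median observed over expected CpG was 0.76 at genes with a member, 0.65 at genes with a 3-antibody region and 0.31 at genes without a peak.

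The share of coding genes with a member was higher at higher CpG ratios, with a smaller range for the share with a 3-antibody region. A member was found at 0.905% of the 1768 genes with a ratio under 0.1, at 13.3% of the 1365 genes from 0.4 to 0.5 and at 37.0% of the 2696 genes from 0.8 to 0.9. The share with a 3-antibody region was 0.792%, 1.54% and 1.82% in the same bins. Within the 10038 CpG-island-like coding promoters 34.0% had a member, so that most of these promoters had none.

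**Figure D3:**
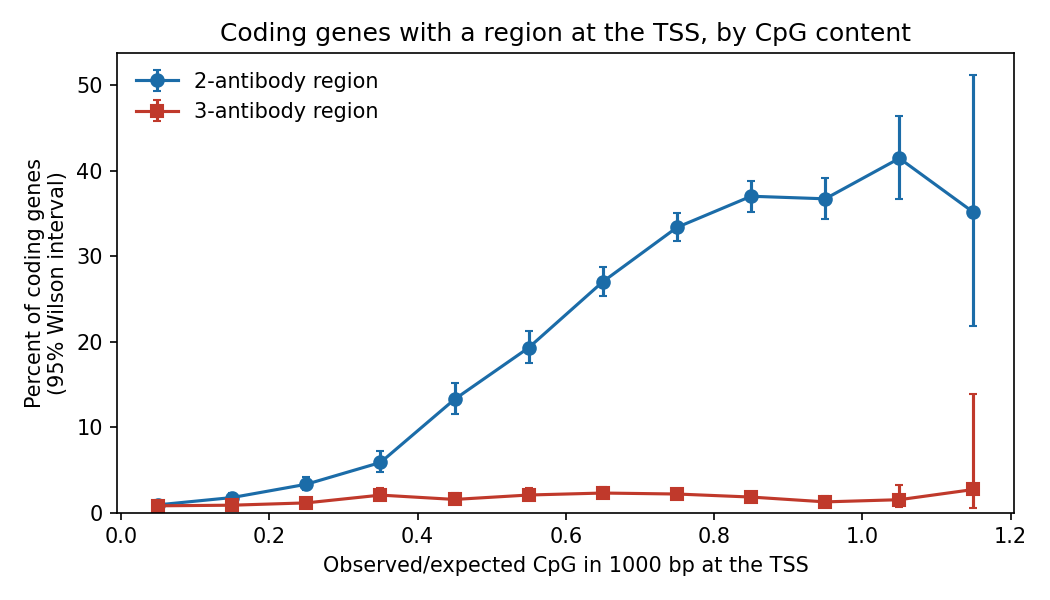
Percent of protein-coding genes with a region at the TSS (vertical, with 95% Wilson intervals) against the observed over expected CpG ratio in the 1000 bp around the TSS (horizontal). The share with a 2-antibody region climbs from 0.905% in the lowest bin to 37.0% between 0.8 and 0.9, while the share with a 3-antibody region is under 3% in every bin.

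Genes on chromosome X had members less often, at 110 of 948 (11.6%) against 4096 of 20990 other genes (19.5%), a difference of 7.91 points (interval 5.65 to 9.87). Within CpG-island-like promoters the shares were 29.2% of 236 and 34.2% of 9802, and the interval of that difference, −1.25 to 10.4 points, held 0.

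Divergent gene pairs, in which another gene starts on the opposite strand close upstream, were commoner among genes with a member than among genes without a peak. A TSS on the other strand within 1000 bp upstream was found for 851 of 4206 genes with a member (20.2%) and 1008 of 13777 genes without a peak (7.32%), a difference of 12.9 points (interval 11.6 to 14.2). Within CpG-island-like promoters the shares were 22.3% and 19.1%, and the difference was 3.26 points (interval 1.36 to 5.16). No difference was detected from the other classes with peaks: genes with single-antibody peaks had 18.9%, with an interval of the difference from −0.397 to 3.13 points, and CpG-island-like genes with a 3-antibody region had 25.5%, with an interval from −9.85 to 2.59 points. Examples were the proteasome gene Psma7, which shared its region with Ss18l1, and Mrpl40, paired with Hira. Counted on either strand and in any orientation, 403 members lay within 1000 bp of 2 coding TSSs, and 3359 of a single coding TSS.

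The extended E-box was scarcer at members than at 3-antibody promoters and at distal 2-antibody regions. It was present in the central 200 bp of 727 of 3779 members (19.2%, interval 18.01 to 20.5), in the central 100 bp of 10.3% and in the central 400 bp of 34.9%. The share was 39.3% of the 323 3-antibody promoters, a difference of 20.1 points (interval 14.8 to 25.6), and 67.1% of the 15025 distal 2-antibody regions, a difference of 47.8 points (interval 46.3 to 49.3). The GC content of these windows differed, with medians of 68% at members, 62.5% at 3-antibody promoters and 49% at distal regions. In a comparison added after the values were seen, windows of equal GC content were set side by side. From 50% up to 60% GC the E-box was found at 25.6% of 544 members and at 66.8% of 5894 distal regions, a difference of 41.3 points (interval 37.2 to 44.9). From 60% up to 70% the shares were 21.3% and 56.2%, and from 70% up to 80% they were 14.1% and 23.5%, a difference of 9.41 points (interval 1.42 to 19.6).

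The difference from the 3-antibody promoters was also present within promoter classes. At CpG-island-like promoters the E-box was found in 448 of 3044 members (14.7%) and 39 of 173 3-antibody regions (22.5%), a difference of 7.83 points (interval 2.08 to 14.7). At other promoters it was found in 279 of 735 members (38.0%) and 88 of 150 3-antibody regions (58.7%), a difference of 20.7 points (interval 11.9 to 29.0). At antibody 2 scores from 200 up to 400 the shares were 21.5% and 42.6%, a difference of 21.1 points (interval 9.05 to 33.9). From 400 up to 800 they were 28.2% and 38.3%, and the interval of −0.48 to 20.7 points held 0. At equal GC content the 3-antibody share was higher by 16.8 points from 50% up to 60% GC (interval 6.51 to 27.6), by 28.7 points from 60% up to 70% (interval 19.6 to 37.8) and by 9.69 points from 70% up to 80% (interval 0.66 to 21.6). From 40% up to 50% GC the order was the opposite, 44.2% of 113 members against 31.2% of 32, with an interval of −29.2 to 6.44 points that held 0.

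Among the members the E-box share varied with the promoter class and with the distance from the TSS. Members at promoters that were not CpG-island-like held it more often by 23.2 points (interval 19.6 to 27.0). Members 500 bp or more from the TSS held it in 32.4% of 407, against 17.6% of 3372 nearer ones, a difference of 14.8 points (interval 10.2 to 19.6). Upstream and downstream members had 19.1% and 19.3%, with an interval of the difference from −2.97 to 2.71 points. With the members ordered by antibody 2 score and cut into 3 groups of equal size, the share was 17.1%, 17.8% and 22.9% from the lowest to the highest.

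Each member's centre was next compared with its own flanks, 200 bp windows that started 1000 bp beyond the ends of the region. At CpG-island-like promoters the centre held the E-box less often than the flank before the region, 14.7% against 20.9%, with 346 members holding it only in the centre and 533 only in the flank (exact McNemar test, two-sided, adjusted p = 4.05e-10). At other promoters the centre held it more often, 38.0% against 22.9%, with 206 against 95 members (exact McNemar test, adjusted p = 2.86e-10). The flanks after the region gave 20.6% and 19.9% in the same order, with adjusted p = 1.31e-09 and 6.37e-13 in the exact test. The p-values were adjusted over these 4 tests by Benjamini-Hochberg and treat regions of the same libraries as independent. Centres and flanks also differed in GC content, with medians of 68% and 44.5%. Between 50% and 60% GC the share was 25.6% of 544 centres and 25.4% of 831 flanks, with an interval of the difference from −4.48 to 4.93 points. Between 40% and 50% GC it was 44.2% of 113 centres and 21.0% of 1902 flanks, a difference of 23.3 points (interval 14.3 to 32.6).

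**Figure D4:**
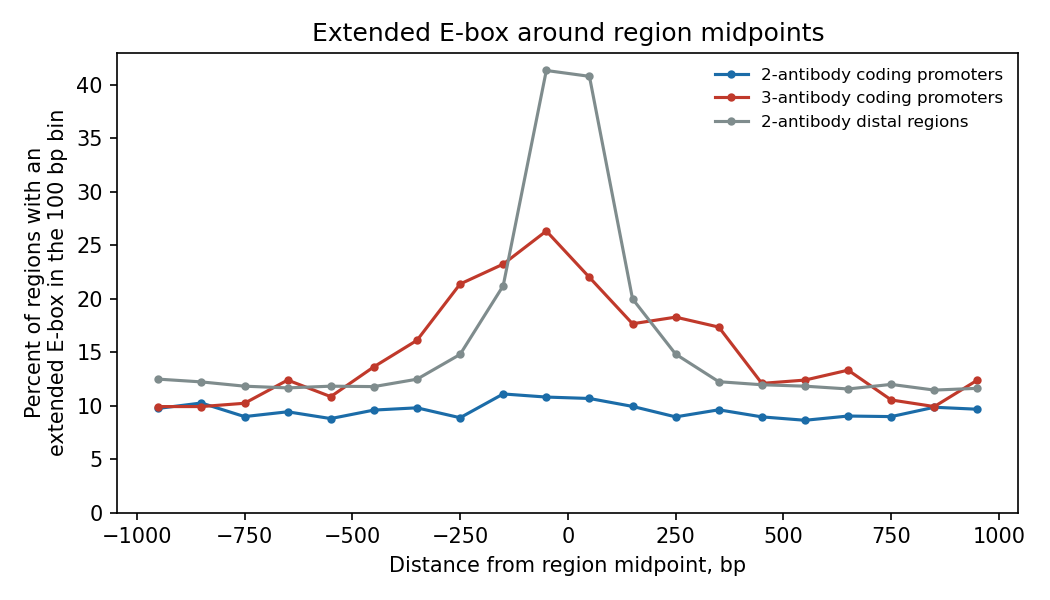
Percent of regions with the extended E-box in each 100 bp bin (vertical) by distance from the region midpoint (horizontal, bp). The profile of the members is nearly flat, between 8.63% and 11.1%, while the 3-antibody promoters reach 26.3% and the distal 2-antibody regions 41.3% next to the midpoint.

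The 10 forms of the core CANNTG did not change alike between the centre and the flank before the region. CAGCTG was found in 16.7% of centres and 8.10% of flanks, 2.06 times as many (exact McNemar test, adjusted p = 1.65e-29 over the 10 forms). CACGTG, the form preferred by USF and MYC, was found in 4.66% and 2.30% (exact test, adjusted p = 3.29e-08), and CACCTG, a form bound by E proteins and by Snail and Zeb repressors, in 15.9% and 13.8% (exact test, adjusted p = 0.0107). The other 7 forms were scarcer in centres. CAGATG, the form found at 49.1% of distal regions, was found in 9.50% of member centres and 15.3% of flanks (exact test, adjusted p = 6.2e-14). CATATG was found in 0.714% of member centres, 4.60% of flanks and 14.2% of distal regions. The 3-antibody promoters had CAGATG in 25.1% and CAGCTG in 24.5%. The forms that were commoner in centres have G or C at both central positions, and the scarcer forms do not. The difference in GC content given above applies to all of them, and no form was compared at equal GC content.

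Elements of other promoter factors were counted from 250 bp upstream to 50 bp downstream of the TSS, within CpG-island-like promoters, on both strands. The extended E-box in this window was found at 716 of 3417 genes with a member (21.0%) and 425 of 3560 genes without a peak (11.9%), a difference of 9.02 points (interval 7.28 to 10.7), against 34.7% at genes with a 3-antibody region and 23.6% over all coding promoters. CCAAT, the core of the NFY element, was found at 43.8% and 33.2% of genes with a member and without a peak, a difference of 10.7 points (interval 8.39 to 12.9), and at 38.7% of all coding promoters. The YY1 element AAGATGGC was found at 6.70% and 3.40%, a difference of 3.30 points (interval 2.28 to 4.35), and at 3.08% of all. The SP1 element GGGGCGG was found at 52.2% and 48.9%, a difference of 3.36 points (interval 1.02 to 5.70), and at 29.9% of all. THAP11's ACTACAA was found at 4.42% and 2.81%, a difference of 1.61 points (interval 0.736 to 2.50), and at 3.78% of all. NRF1's GCGCATGCG was the scarcer at genes with a member, at 2.99% against 4.69%, a difference of −1.71 points (interval −2.61 to −0.806), and was found at 2.47% of all coding promoters. The TGACGTCA element of CREB (3.25% against 4.21%, and 2.43% of all) and a TATAAA 15 to 45 bases upstream on the gene's strand (0.585% against 1.04%, and 2.64% of all) were also scarcer, with intervals of −1.86 to −0.073 and −0.895 to −0.0281 points. For the ETS element CCGGAAG (18.4% against 18.8%, and 11.2% of all), ZBTB33's TCTCGCGAG (1.49% against 1.69%, and 0.916% of all), CACGTG (11.6% against 11.3%, and 7.76% of all) and RFX's GTTGCCA (3.57% against 3.01%, and 4.28% of all) the interval held 0. The median GC content was 62.3% at these genes with a member and 60.7% at those without a peak. The shares over all coding promoters include those that are not CpG-island-like, so they are not on the same base as the other shares. A match of letters is not a binding site.

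Genes with a member had another NEUROD2 region nearby more often than genes without a peak and less often than genes with a 3-antibody promoter region. A further region of at least 2 antibodies lay within 50000 bp of the TSS, and over 1000 bp from it, for 3008 of 4206 genes with a member (71.5%) and 46.8% of genes without a peak. Within CpG-island-like promoters the shares were 70.2% and 60.3%, a difference of 9.90 points (interval 7.67 to 12.1). Genes with a 3-antibody region had one in 82.4%, and members minus these genes gave −10.9 points (interval −14.8 to −6.40). Genes with single-antibody peaks had one in 68.3%, 3.17 points under the members (interval 1.13 to 5.21). Within CpG-island-like promoters a 3-antibody region lay within that distance for 26.8% of genes with a member and 18.1% of genes without a peak, a difference of 8.66 points (interval 6.71 to 10.6). For CpG-island-like genes with a 3-antibody promoter region it did so in 33.7%, and members minus these genes gave −6.90 points (interval −13.9 to −0.470).

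Lists of genes by function were compared with the background share of 19.2%, as counts without a test. Neuronal and general lists were mixed in the order of their shares. Of 22 genes of the Reelin pathway, which guides radial migration, 12 had a member (54.5%), of 28 layer identity transcription factors 13 (46.4%), of 30 cortical progenitor genes 13 (43.3%), and of 74 axon guidance ligands and receptors 29 (39.2%). The shares were 8 of 24 neuronal bHLH factors (33.3%), 14 of 44 synaptic vesicle genes (31.8%), 8 of 26 glutamate receptors (30.8%) and 26 of 128 sodium, calcium and potassium channels (20.3%). Of the general lists, members were found at 32 of 78 mitochondrial ribosomal proteins (41.0%), 22 of 54 subunits of complex I and ATP synthase (40.7%), 10 of 26 BAF chromatin remodelling subunits (38.5%), 21 of 66 genes of RNA polymerase II, TFIID and Mediator (31.8%) and 17 of 55 translation initiation factors (30.9%). Others were near the background: 5 of 20 aminoacyl-tRNA synthetases (25%), 10 of 42 splicing factors (23.8%), 9 of 39 proteasome subunits (23.1%), 78 of 365 Zfp genes (21.4%), 5 of 24 interneuron and subpallial genes (20.8%), 15 of 79 cytosolic ribosomal proteins (18.99%) and 6 of 32 DNA replication factors (18.8%). The replication-dependent histones had 9 of 67 (13.4%). Lists of genes typical of other cells and tissues, in which from 0 to 9 promoters were CpG-island-like, were also set beside the 789 of 11900 coding genes at other promoters that had a member (6.63%). They had a member at 0 of 23 genes of microglia, endothelium and blood, 0 of 365 vomeronasal and taste receptors, 0 of 64 defensins, 4 of 1093 olfactory receptors (0.366%), 5 of 94 cytochrome P450 genes (5.32%) and 9 of 110 keratins and keratin-associated proteins (8.18%). A further 11 genes of the keratin list had a 3-antibody region (10%, against 1.61% of all coding genes). Such a count covers the genes listed: C1qa, a complement gene of microglia that was not in the list and was looked up after its values were seen, had a member with 298 and 107. Within 500 bp of the TSS in place of 1000 bp, where the share of all coding genes was 17.04%, layer identity factors had 7 of 28 (25%), axon guidance genes 19 of 74 (25.7%) and neuronal bHLH factors 4 of 24 (16.7%), while replication-dependent histones fell to 5 members, the keratin list to 5 and interneuron genes to 3. The Reelin pathway then had 8 of 22 (36.4%), progenitor genes 12 of 30 (40%), complex I and ATP synthase 21 of 54 (38.9%) and mitochondrial ribosomal proteins 29 of 78 (37.2%), so the order of the lists depended on the distance.

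**Figure D5:**
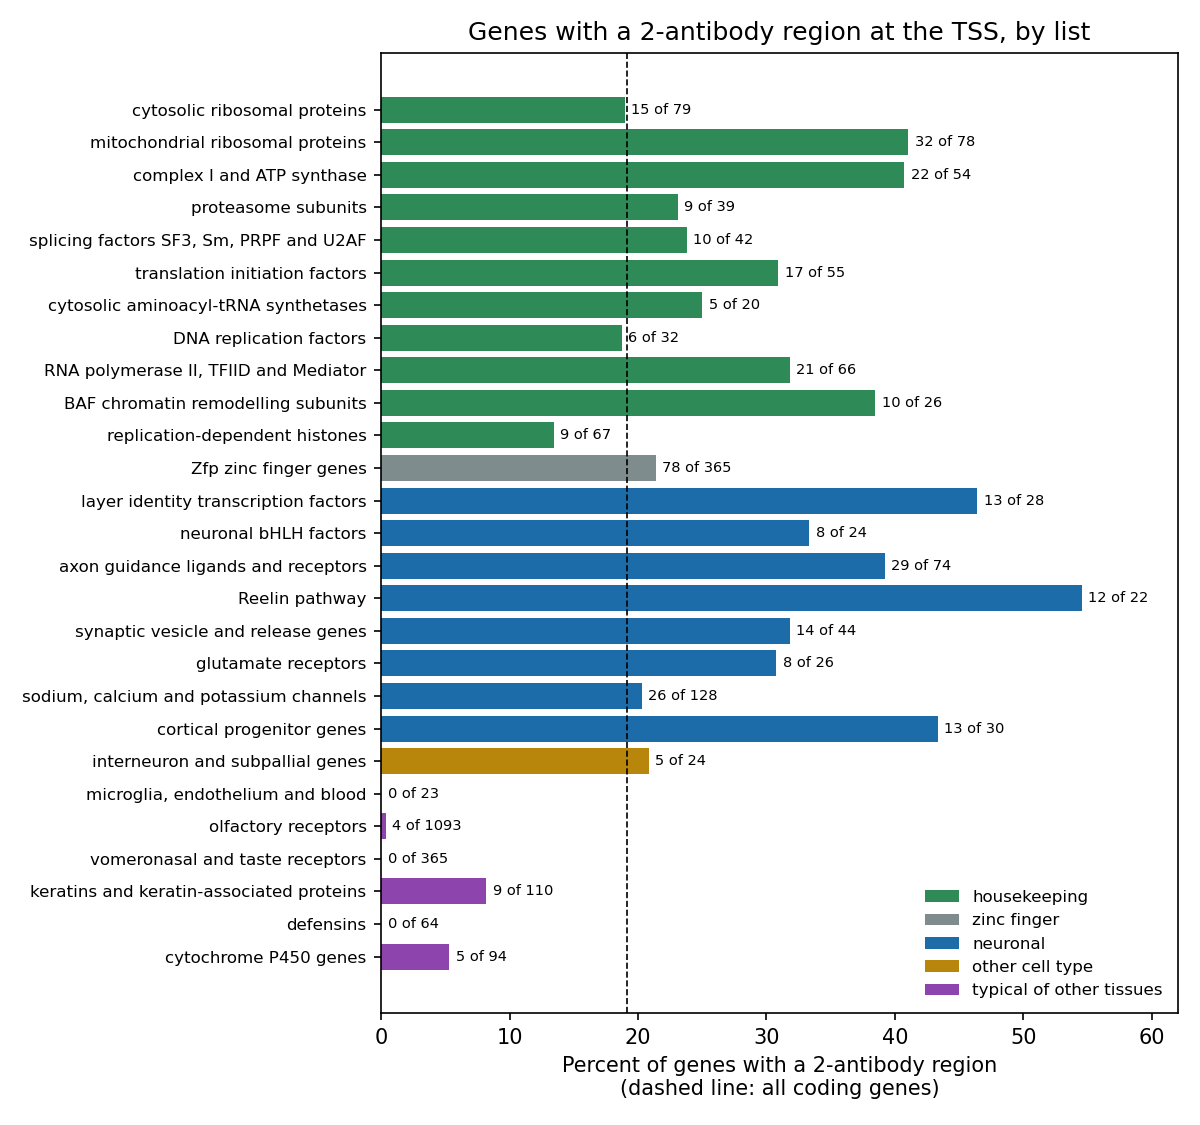
Percent of the genes of each list with a 2-antibody region at the TSS (horizontal), with the count beside each bar and the share over all protein-coding genes, 19.2%, as a dashed line. All neuronal lists (blue) except the ion channels and 5 general lists (green) reach past 30%, and lists typical of other tissues (purple) stay under 10%.

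The lists differed in promoter composition, so CpG-island-like genes were also counted alone, against their background of 34.0%. On that base the Reelin pathway had 12 of 20, progenitor genes 11 of 20, layer identity factors 11 of 21 (52.4%), glutamate receptors 5 of 10 and axon guidance genes 25 of 52 (48.1%), while neuronal bHLH factors had 5 of 14 (35.7%), synaptic vesicle genes 6 of 25 (24%) and ion channels 13 of 55 (23.6%). Zfp genes had 64 of 181 (35.4%) and cytochrome P450 genes 3 of 9 (33.3%). Of the general lists, mitochondrial ribosomal proteins had 26 of 63 (41.3%), BAF subunits 9 of 23 (39.1%), complex I and ATP synthase 16 of 41 (39.02%), translation initiation factors 17 of 47 (36.2%), RNA polymerase II, TFIID and Mediator 18 of 55 (32.7%), proteasome subunits 8 of 30 and aminoacyl-tRNA synthetases 4 of 15 (26.7% each), splicing factors 10 of 39 (25.6%), cytosolic ribosomal proteins 14 of 66 (21.2%), DNA replication factors 4 of 26 (15.4%) and histones 6 of 49 (12.2%). Interneuron genes had 2 of 15 (13.3%).

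Members of the Reelin list included Cdk5r1 (chr11:80476155-80478334), the p35 activator of Cdk5, with scores of 1051 and 350 for antibodies 1 and 2. Pik3r1, a regulatory subunit of PI3 kinase, had 582 and 536. Map1b, a microtubule-associated protein, had 869 and 401, and Gsk3b, a kinase of Tau, had 1841 and 342. The Reelin receptor gene Lrp8 (chr4:107801368-107804479) had 459 and 198 in its first intron. Of these 5, only the region at Pik3r1 held the extended E-box in its centre.

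By antibody 2 score the list of axon guidance ligands and receptors was led by Plxna4, a semaphorin co-receptor, with 1966 and 739 (chr6:32586056-32588944), and Unc5a, a netrin receptor, with 1376 and 726 (chr13:54948386-54950696). The Eph receptors Ephb3 and Ephb2 had 774 and 524, and 2630 and 516. Epha4 had 865 and 420, and Plxna2 had 770 and 199. The Slit receptor Robo2 had 383 and 296 upstream of its TSS, and the ligand Slit1 had 255 and 60.2. Sema5b had 304 and 81.3. Nrcam, a cell adhesion molecule of axons that was not in the list, had 2916 and 870 (chr12:44328278-44330562).

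Transcription factors of the cortical layers included Pou3f2, an upper layer factor, with 2299 and 583, Nfix, a nuclear factor I gene, with 770 and 467, Rorb, a marker of layer IV, with 630 and 410, and Foxp1 with 977 and 294. Cux1 had 274 and 183. Tbr1, a factor of early-born neurons, had 169 and 89.2 in its first exon. Among bHLH genes, Neurod2 itself (chr11:98326652-98330784) had 2022 and 771 in its first intron, 930 bp from the TSS, Tcf12, an E protein, had 529 and 518, and Id4, which lacks a DNA-binding region, had 753 and 294. Id2 had 484 and 189, and Nhlh2 had 158 and 153 over a region with the E-box at a CpG-poor promoter. Tle1, a corepressor, had 1318 and 317.

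Progenitor genes with a member included Insm1, Fabp7, a lipid-binding protein of radial glia, with 455 and 415, Btg2, an antiproliferative gene, with 322 and 202, and Neurog2, an upstream bHLH factor, with 465 and 172. At synaptic genes the scores were 520 and 289 for Pclo, 483 and 244 for Syp, and 307 and 159 for Rab3a. Grin1, the obligatory NMDA receptor subunit, had 287 and 320, and Gria2, an AMPA receptor subunit, had 511 and 179. Among the potassium channel genes Kcnh3 had 698 and 397, Kcnj3 1084 and 342, and Kcnq3 891 and 280. Interneuron genes with a member were led by the serotonin receptor gene Htr3a, with 1500 and 630 and an E-box at a CpG-poor promoter.

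The median antibody 2 score of the members ranged from 69.2 to 176 over the 11 general lists and from 110 to 205 over the 8 neuronal lists, against 115 over all genes with a member. Among ribosomal proteins Rpl13a had 176 and 165, Rpl37 had 81.6 and 107, Rpl5 had 115 and 97.7 and Rps20 had 104 and 95.7. The extended E-box was held in the centre by 0 of the 15 members of that list, 14 of them at CpG-island-like promoters. The share was 19.2% over all members and 14.7% over those at CpG-island-like promoters. Mrps18a, of the mitochondrial ribosome, had 337 and 332, and Mrpl11 had 430 and 289. Atp5g2, an ATP synthase subunit, had 472 and 313, and Ndufb11, of complex I, had 492 and 221. Psma7 had 256 and 343, the antibody 2 score being the higher, and Psmd4 had 183 and 272. Eif4g2 had 1022 and 511, Eif3m 1293 and 337, the Mediator subunit Med13 1225 and 495, and Smarcd3, a neural BAF subunit, 1308 and 575. Wars, the tryptophanyl-tRNA synthetase, had 556 and 411, Prpf19 344 and 269, Orc6 130 and 255, and Zfp423 430 and 711.

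E-box counts in the lists with few members are given without a test. The extended E-box was held at 2 of 9 proteasome, 3 of 8 neuronal bHLH and 1 of 8 glutamate receptor genes with a member. For DNA replication factors the count was 1 of 6, for aminoacyl-tRNA synthetases 2 of 5 and for interneuron genes 3 of 5. Of the 9 members at keratin-associated protein genes 8 held the extended E-box, and 0 of the 110 genes of the list of keratins and keratin-associated proteins had a CpG-island-like promoter. Among all members at promoters of that other kind the share was 38.0%. Krtap10-4 had 727 and 236 and Krtap4-9 had 365 and 177. Of the 4 olfactory receptor members, at promoters of the same kind, 3 held the E-box, with 382 and 159 at Olfr459 as the highest scores. Of the 9 replication-dependent histone members, 6 of them at CpG-island-like promoters, 8 held it, led by Hist1h3e with 464 and 251. Among all members at CpG-island-like promoters the share was 14.7%. Histone, olfactory receptor and keratin-associated genes belong to multi-copy families that lie in clusters of similar sequences, and the authors had removed reads with several map positions. The part of this in the peaks there was not tested. Of the 5 cytochrome P450 members 3 were at CpG-island-like promoters and 2 held the E-box. Cyp2u1 had 1520 and 624 at a CpG-island-like promoter without the E-box.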

How the data were processed

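ChIP-Seq peaks of 3 NEUROD2 antibodies were analysed, 1 library each, and the samples were grouped by the antibody in their labels. The authors aligned reads to mm10 with Bowtie, left out duplicate and multi-mapped reads, and ran MACS with the GFP control raised in the host of each antibody. The deposited score is −10 times the log10 of the MACS p-value and is not scaled between antibodies. The GFP libraries as data and the reads were not used here.

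Peaks sharing 1 bp were merged and region midpoints were placed on GENCODE M21 (mm10) at the TSS of the longest-span transcript of each gene. Positions count from 1. Sequence came from the RefSeq assembly GRCm38.p6, the same build, so BALB/c variants were not seen. Shares were compared by Newcombe intervals and centres with flanks by the exact McNemar test, and the code was tested on simulated data. Python 3.11.15, scipy 1.17.1, pysam 0.24.0 and samtools 1.23.1 were used. Members and lists were chosen with earlier results of these data known. Named genes were the 10 with the highest antibody 2 score, up to 4 per list by the same score, a set of genes named in the study's text or supplements, members of rare antibody pairs and those next to a limit. Alternatives were a score of 100, an overlap of 50%, other midpoints, distances and TSSs, leaving out antibody 3, and other motif, CpG and divergence definitions. Some genes that this rule names are not reported here.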

Additional observations from a re-analysis of the deposited data

How the results depend on the processing

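The differences kept their sign and their side of 0 under the alternatives run for them. For the extended E-box these were windows of 100 and 400 bp and the 6-letter forms without the seventh base, for CpG-island-like promoters the stricter definition, and for divergent TSSs the coding-only and 300 bp definitions. The 4 comparisons of centre and flank, before and after the region, run with the same E-box settings after the data were seen, also kept theirs. Shares and counts depended more on the settings. With peaks of a score of 100 or more, 2274 members at 2514 genes were left, and 22.0% held the extended E-box. That share was 20.9% at the midpoint of the highest-scoring peak, 17.7% within 500 bp of the TSS, 25% with the TSS of any transcript and 20.8% without antibody 3, when regions of antibodies 1 and 2 were taken with or without the third peak. It was 10.3% in 100 bp, 34.9% in 400 bp and 24.9% with the 6-letter E-box. The share at CpG-island-like promoters, 80.6% of members, was 83.0% within 500 bp, 69.8% with the TSS of any transcript, 78.4% without antibody 3 and 67.8% under GC of 55% and a ratio of 0.65. The share downstream was 61.3% with the TSS of any transcript. The share of genes with a divergent TSS was 13.1% for coding partners and 14.7% up to 300 bp. Of 27 lists, 18 lay above the share of all coding genes, 17 within 500 bp and 18 with the TSS of any transcript. Within 500 bp 3 lists changed to below it (neuronal bHLH factors, ion channels and interneuron genes) and 2 to above it (cytosolic ribosomal proteins and DNA replication factors), and with the TSS of any transcript cytosolic ribosomal proteins changed to above it and interneuron genes to below it. Of the 54 list counts recomputed, 6 moved by over 1.5 times, all within 500 bp, among them axon guidance genes (19), layer identity factors (7) and neuronal bHLH factors (4). No biological replicate exists, so replicate error could not be estimated.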
